A study of Mus musculus with 10 samples.

Results

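Nodal is a secreted ligand of the TGF-β family. It signals through type I and type II activin receptors with an EGF-CFC co-receptor, and the receptors activate Smad2 and Smad3. Lefty proteins are secreted antagonists of Nodal that are themselves induced by Nodal signalling, and mouse embryonic stem (ES) cells are known to have an active autocrine loop of this kind. Described here are 8 of the 22713 genes in the mRNA-sequencing tables, chosen by symbol and matched to one Ensembl identifier each. They are the ligands Nodal (ENSMUSG00000037171) and Gdf3 (ENSMUSG00000030117), the co-receptor Tdgf1 (Cripto, ENSMUSG00000032494), the type I receptor Acvr1b (ENSMUSG00000000532), the type II receptor Acvr2b (ENSMUSG00000061393), the antagonists Lefty1 (ENSMUSG00000038793) and Lefty2 (ENSMUSG00000066652), and the inhibitory Smad Smad7 (ENSMUSG00000025880).

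The 8 mRNA libraries came from 2 mouse ES cell lines. Pontinf/f; CreER ES cells carry floxed Pontin alleles and a Cre that 4-hydroxy tamoxifen (OHT) activates. They were sequenced without OHT (WT) and after OHT for 3 days (OHT 3D) and 4 days (OHT 4D), with 1 library each, and the WT library has the floxed alleles and CreER too. ZHBTc4 ES cells make Oct4 only from a transgene that tetracycline (Tc) shuts off. They were sequenced after Tc for 2 days (Tc 2D, 1 library), and, without Tc, 4 days after infection with pLKO control lentivirus (shRNA control, 2 libraries) or with pLKO-shlinc1253 lentivirus (shRNA linc1253, 2 libraries) against the long noncoding RNA linc1253. Chromatin of untreated ZHBTc4 cells gave 1 Pontin and 1 GFP ChIP library. No library has OHT without loss of Pontin, so the agent and the deletion cannot be told apart.

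Reads on genes numbered 17187595 to 37951742 per library. Levels are normalized read counts (CPM, reads scaled by library size and a TMM factor), and the 2 deposited tables were normalized separately. The CPM of all genes summed to 798811 in WT, 638591 at Tc 2D and 978095 to 1015095 in the shRNA libraries. CPM of the shRNA libraries and of the other libraries are therefore not on one scale. The CPM of Ruvbl1, which encodes Pontin, went from 198 without OHT to 33.3 after 3 days and 50.9 after 4 days. Oct4 mRNA (Pou5f1) stood at 301 CPM in WT, 21.1 CPM at Tc 2D and 582 to 642 CPM in the shRNA control libraries. Both targeted genes were lower where the labels say they were depleted, while linc1253 RNA was not analysed here. Of 12 pluripotency markers, 11 were matched and all of these had reads in every library, with a summed level of 2690 to 2916 CPM in WT, OHT 3D and OHT 4D, 647 CPM at Tc 2D and 4381 to 5317 CPM in the 4 shRNA libraries. A list of 16 fibroblast markers summed to 65.0 CPM in WT, 279 CPM at OHT 3D, 348 CPM at OHT 4D and 181 CPM at Tc 2D, and to between 247 and 317 CPM in the shRNA libraries. One marker, Vim, made up much of this, with 34.1 CPM in WT, 109 and 134 CPM at the OHT times, 121 CPM at Tc 2D and 163 to 217 CPM in the shRNA libraries. The collagen gene Col1a1 had 4.202 CPM in WT, 46.5 and 64.6 CPM at the OHT times, 1.34 CPM at Tc 2D and 5.18 to 12.5 CPM in the shRNA libraries, and 4 of the 16 markers were at 0 at Tc 2D (Postn, Lum, Dcn and S100a4). The study grew its ES cells either on embryonic fibroblast feeders or without them, and the labels do not say which applied to a library. In bulk RNA, fewer cells of a type and less RNA per cell cannot be told apart.

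The genes lay on 6 chromosomes of NCBIM37. Lefty1 (chr1:182865153-182868531, plus strand) and Lefty2 (chr1:182823239-182829234, plus strand) were neighbours. Tdgf1 (chr9:110842114-110848662, minus strand) and Acvr2b (chr9:119311562-119342619, plus strand) shared chromosome 9. Nodal was at chr10:60880720-60888086 (plus strand), Gdf3 at chr6:122555421-122560105 (minus strand), Smad7 at chr18:75527183-75555589 (plus strand) and Acvr1b at chr15:101004556-101043032 (plus strand). All are annotated as protein coding, and 0% of their exon bases overlapped exons of another gene. Of the 100-base exon windows of Lefty1, 6.90% were found again in Lefty2, and 4.24% of those of Lefty2 were found again in Lefty1. Reads from such stretches could be assigned to either gene or lost. For Tdgf1, 7.04% of the windows recurred elsewhere in the genome, whereas for the other 5 genes 0 windows did.

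Per length, the co-receptor led in 7 of 8 libraries, all but Tc 2D. In WT, the length-scaled level (RPKM, from the recovered reads and the annotated exon length) was 441 for Tdgf1, 139 for Lefty1, 92.7 for Lefty2, 40.3 for Nodal, 32.3 for Gdf3, 20.2 for Acvr1b, 17.0 for Smad7 and 8.72 for Acvr2b. WT is 1 library, so this order has no spread. In the shRNA control libraries the same measure was 409 ± 23.9 (SD, n = 2) for Tdgf1 and 6.95 ± 0.29 (SD, n = 2) for Acvr2b, again the highest and the lowest. Between them, Nodal at 20.8 ± 0.20 (SD, n = 2), Smad7 at 20.2 ± 4.15 (SD, n = 2) and Gdf3 at 20.1 ± 1.34 (SD, n = 2) did not differ beyond their spread, nor did Acvr1b at 17.3 ± 0.50 (SD, n = 2) and Lefty2 at 17.1 ± 6.88 (SD, n = 2). Lefty1, second in WT, was seventh in both control libraries, at 11.5 ± 0.13 (SD, n = 2).

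**Figure D1:**
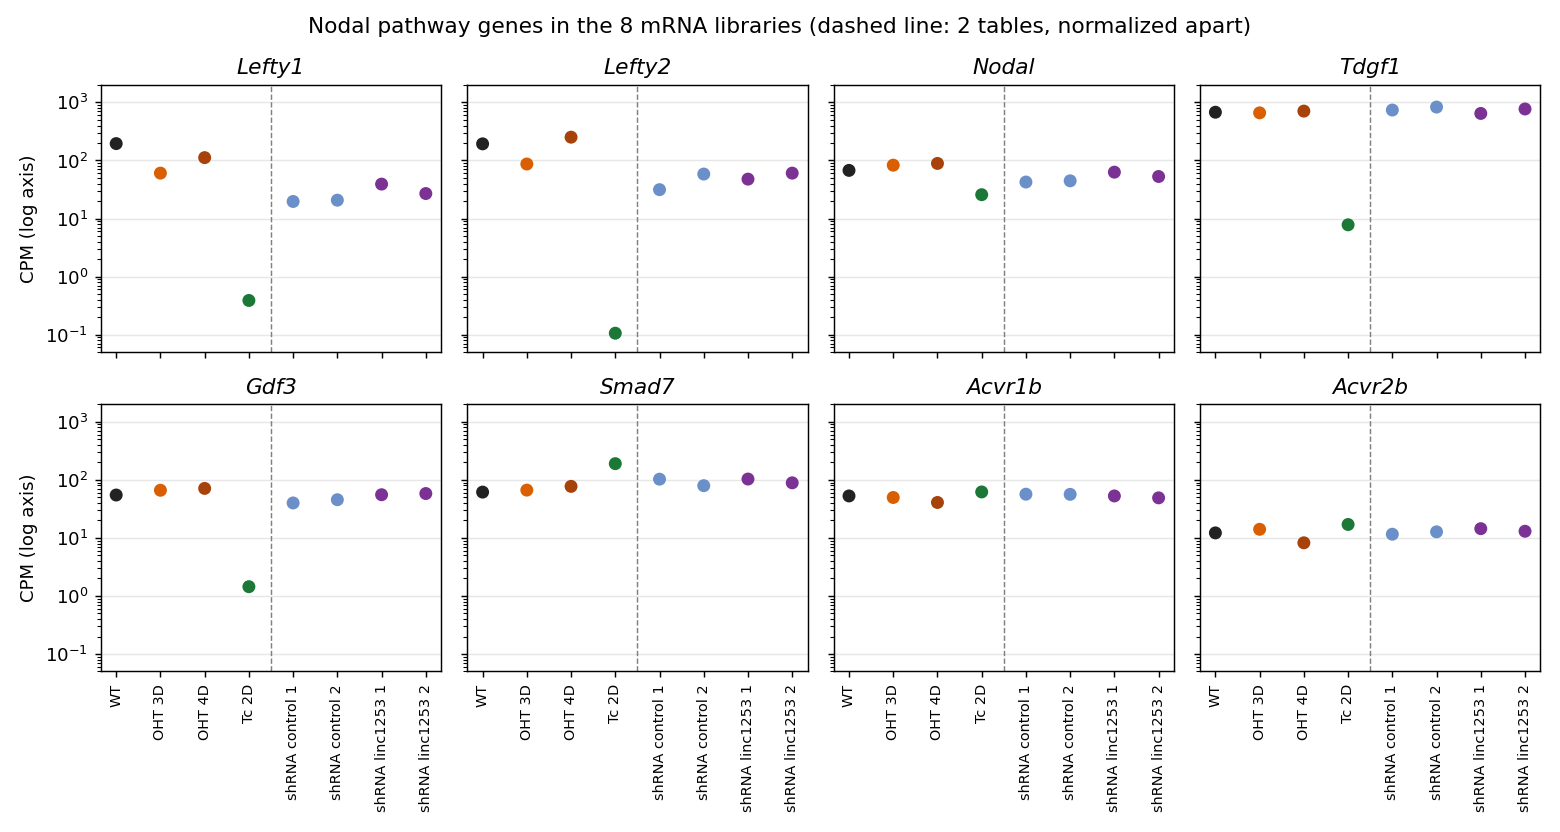
Normalized read count (CPM, log axis) of each of the 8 genes in each mRNA library, 1 point per library, with a dashed line between the tables that were normalized separately. At Tc 2D, Lefty1, Lefty2, Tdgf1 and Gdf3 lie far below every other library, whereas Smad7 has its highest point there.

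The first comparison asks what happened to the pathway when Pontin was lost. At OHT 3D both Lefty genes fell, and at OHT 4D only Lefty1 was still below WT past the threshold. The ligands, the co-receptor, the receptors and Smad7 stayed within the threshold at both times. A change here is the difference of log2(CPM + 1), a gene was called when that difference exceeded 0.58 in size, and intervals are 95% intervals on the ratio of CPM that cover the counting of reads alone. With 1 library per time there is no replicate check and no p-value in these data. By quantitative RT-PCR, the study reports lower Lefty1 mRNA in Pontin-depleted and in Oct4-depleted ES cells.

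Lefty1 had 195 CPM in WT, 60.5 CPM at OHT 3D and 112 CPM at OHT 4D. Its level was thus 3.23-fold lower at OHT 3D (log2-fold-change −1.67, ratio of CPM 0.291 to 0.330) and 1.74-fold lower at OHT 4D (log2-fold-change −0.80, ratio of CPM 0.546 to 0.602). Lefty2 had 193 CPM in WT, 86.9 CPM at OHT 3D and 252 CPM at OHT 4D. It was 2.22-fold lower at OHT 3D (log2-fold-change −1.14, ratio of CPM 0.426 to 0.474), but at OHT 4D it was the highest of all 8 libraries, with a log2-fold-change of 0.38 that did not pass the threshold (ratio of CPM 1.25 to 1.36). From the third to the fourth day Lefty1 rose by 0.88 and Lefty2 by 1.52 on the log2 scale.

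The 2 antagonists thus did not keep their ratio. In WT there were 0.990 Lefty2 reads per Lefty1 read (counting interval 0.949 to 1.03). The ratio was 1.44 (1.34 to 1.54) at OHT 3D and 2.25 (2.15 to 2.36) at OHT 4D, and the 3 intervals did not overlap. Libraries of one group differed as well, since the shRNA control libraries gave 1.60 (1.41 to 1.81) and 2.82 (2.54 to 3.13) and the shRNA linc1253 libraries 1.22 (1.14 to 1.304) and 2.25 (2.04 to 2.47). The spread within a group was therefore larger than the counting intervals, and the ratio at both OHT times lay inside the range of the shRNA libraries. Reads of both genes fall partly on the shared exon stretches given above.

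**Figure D2:**
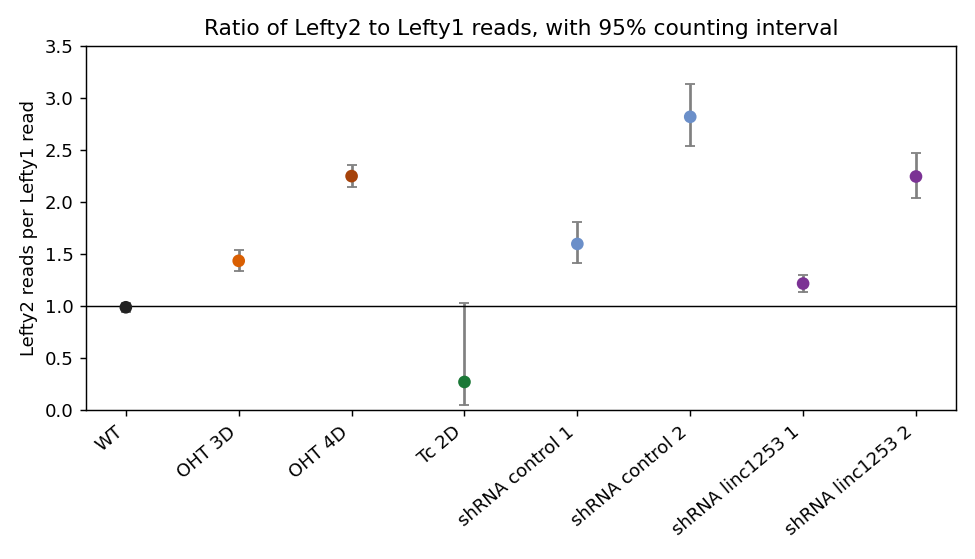
Lefty2 reads per Lefty1 read in each mRNA library (points), with 95% counting intervals (bars) and a line at a ratio of 1. The ratio runs from 0.990 in WT to 2.25 at OHT 4D, while the 2 shRNA control libraries, at 1.60 and 2.82, differ from each other by more than their intervals.

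Nodal itself had 67.5 CPM in WT, 82.9 CPM at OHT 3D and 88.9 CPM at OHT 4D, with log2-fold-changes of 0.29 and 0.39. Gdf3, a Nodal-related ligand, had 54.8, 66.2 and 71.2 CPM in the same libraries, with log2-fold-changes of 0.27 and 0.37. The counting intervals of both ligands lay above 0 at both times, yet neither passed the threshold. Tdgf1, the co-receptor on which Nodal depends, had 678 CPM in WT, 661 CPM at OHT 3D and 708 CPM at OHT 4D, with log2-fold-changes of −0.04 and 0.06.

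Acvr1b, the type I receptor, had 52.8 CPM in WT, 49.7 CPM at OHT 3D and 40.8 CPM at OHT 4D, with log2-fold-changes of −0.09 and −0.37. Acvr2b, the type II receptor, had 12.2 CPM in WT, 14.1 CPM at OHT 3D and 8.24 CPM at OHT 4D, with log2-fold-changes of 0.19 and −0.52. Between the 2 OHT times it fell by 0.71 on the log2 scale, past the threshold, on 311 and 188 reads. Smad7, which blocks the receptors and is itself a target of the pathway, had 61.6, 66.6 and 77.3 CPM, with log2-fold-changes of 0.11 and 0.32.

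In counts, 0 of the 8 genes rose and 2 fell at OHT 3D, where 6.01% of the 13449 genes that passed the filter rose and 5.88% fell. At OHT 4D 0 rose and 1 fell, against 6.48% and 8.89% of all genes. At OHT 4D against OHT 3D, 2 rose and 1 fell, against 5.47% and 8.84%. The median log2-fold-change of the 8 genes was 0.04 at OHT 3D and 0.19 at OHT 4D, beside −0.02 and 0.00 over all genes. All 8 passed the filter of more than 1 CPM in at least 1 of the first 4 libraries.

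Of the fibroblast markers, 14 of 16 passed the same filter and 14 of these 14 rose at both OHT times, with Lum at 0 in WT and OHT 3D. The 9 matched primitive endoderm markers summed to 108 CPM in WT, 230 CPM at OHT 3D and 304 CPM at OHT 4D, and the 9 matched trophectoderm markers to 48.3, 129 and 299 CPM. Of the primitive endoderm markers 9 passed the filter, with 4 higher and 1 lower past the threshold at OHT 3D and 7 higher and 0 lower at OHT 4D. The collagen genes Col4a1 (33.3, 95.6 and 129 CPM) and Col4a2 (17.9, 52.5 and 81.9 CPM) carried most of that sum at both OHT times. Of the trophectoderm markers 8 passed, with 6 higher at OHT 3D and 7 at OHT 4D and 0 lower. The keratin genes Krt8 (19.8, 65.1 and 155 CPM) and Krt18 (17.7, 44.2 and 110 CPM) carried most of their sum at both OHT times. Cdx2 had 0.0894, 0.679 and 1.01 CPM and Ascl2 4.16, 4.52 and 3.33 CPM. The part of these cells in the levels of the Nodal pathway genes was not tested.

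**Figure D3:**
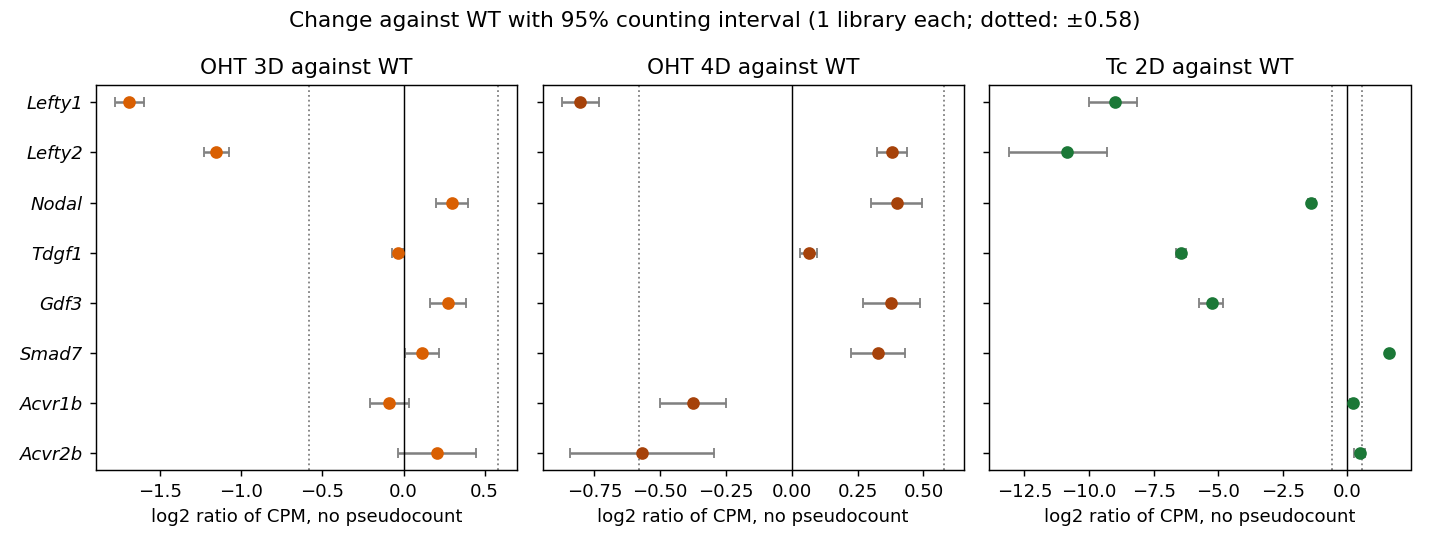
Log2 ratio of CPM against WT without a pseudocount, with 95% counting intervals (bars), for the 8 genes at OHT 3D, OHT 4D and Tc 2D, with dotted lines at ±0.58 and a separate scale in each panel. Lefty1 and Lefty2 are left of the lower line at OHT 3D, only Lefty1 clearly so at OHT 4D, and Lefty1, Lefty2, Tdgf1, Gdf3 and Nodal at Tc 2D; at OHT 4D Acvr2b lies close to that line and was not called with the pseudocount.

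The wider pathway was followed through a list of 32 other genes, of which 24 passed the filter. At OHT 3D, 3 of these rose and 2 fell, beside 6.01% and 5.88% of all genes. Inhbb, which encodes an activin subunit, rose from 79.3 to 130 CPM (log2-fold-change 0.71), and Inhba, another activin subunit, from 0.268 to 8.32 CPM (2.88). Eomes, a T-box factor of early lineages, fell from 7.55 to 4.39 CPM (−0.67). At OHT 4D, 4 rose and 2 fell, beside 6.48% and 8.89%. Inhbb was at 124 CPM (0.64) and Pcsk6, a protease that processes Nodal, rose from 55.6 to 84.2 CPM (0.59). Skil, a repressor of Smad-driven transcription, fell from 144 to 61.0 CPM (−1.23), and Trim33, a Smad4 regulator, from 161 to 103 CPM (−0.64). The list's median was −0.03 at both times, beside −0.02 and 0.00 over all genes.

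The second comparison asks the same of the loss of Oct4. At Tc 2D, against WT of the other line, the ligands, the co-receptor and both antagonists were lower past the threshold and Smad7 was higher, whereas the receptors stayed within it. Against the shRNA control of the same line on one scale, Nodal (−0.56) did not pass and Acvr2b (0.64) passed upward, while the other 6 calls were as against WT. Lefty1 had 0.388 CPM, on 11 reads, against 195 CPM in WT, with a log2-fold-change of −7.14 (log2 ratio −9.98 to −8.14). The intervals are on the ratio without the added 1 CPM, which shrinks the log2-fold-change at such low levels. Lefty2 had 0.106 CPM, on 3 reads, against 193 CPM, with a log2-fold-change of −7.46 (log2 ratio −13.11 to −9.29). Both antagonists were thus at the edge of detection. Tdgf1 had 7.79 CPM against 678 CPM (log2-fold-change −6.27), an 87.0-fold lower level, and Gdf3 1.44 CPM against 54.8 CPM (−4.51), 37.9-fold lower. Nodal kept more of its level, at 25.7 CPM against 67.5 CPM, 2.62-fold lower (log2-fold-change −1.36).

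Smad7 had 190 CPM at Tc 2D against 61.6 CPM in WT, 3.09-fold higher (log2-fold-change 1.61, ratio of CPM 2.91 to 3.28). Acvr1b had 61.9 CPM against 52.8 CPM (0.22) and Acvr2b 17.1 CPM against 12.2 CPM (0.45). In all, 1 of the 8 genes rose and 5 fell, where 23.9% of all genes rose and 25.8% fell. The median of the 8 was −2.93 on the log2 scale, beside −0.06 over all genes. The scale of this comparison was the least certain, since scaling by total reads alone, without the TMM normalization, moved the median of all genes at Tc 2D from −0.06 to 0.24 on the log2 scale, with every gene moved alike before the pseudocount. On that scale Acvr2b, at 0.77, passed the threshold, and Nodal was at −1.05.

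Ruvbl1, which encodes Pontin, also fell at Tc 2D, to 85.0 CPM from 198 CPM in WT (log2-fold-change −1.21, and −0.85 against the shRNA control on one scale), in 1 library. The study, by immunoblot and quantitative RT-PCR, reports no significant change of Pontin protein or mRNA on Oct4 depletion. WT is a library of the other cell line, so at Tc 2D the line and the loss of Oct4 cannot be told apart in that comparison. The shRNA control libraries are ZHBTc4 cells with Oct4, though infected with lentivirus, and they stand in the second table. Per the study's supplement, they were also sequenced on another instrument model than WT and Tc 2D. Placed on one median-ratio scale with the first, they gave log2-fold-changes at Tc 2D of −3.92 for Lefty1, −5.42 for Lefty2, −6.32 for Tdgf1, −4.07 for Gdf3 and 1.24 for Smad7. Nodal was at −0.56 and no longer passed the threshold, and Acvr2b was at 0.64 and did. Without shRNA control replicate 1 the 2 calls changed places, with Nodal at −0.59 and Acvr2b at 0.57, and without shRNA control replicate 2 they were at −0.52 and 0.71. By this control 2 of the 8 rose and 4 fell, where 23.8% of all genes rose and 23.8% fell. With the CPM as deposited, Nodal passed at −0.74 and Acvr2b did not at 0.46, and 1 rose and 5 fell, where 17.7% of all genes rose and 30.4% fell.

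The Lefty genes started lower in this control. On the one scale, WT stood above the shRNA control mean by 3.39 for Lefty1, 2.25 for Lefty2 and 0.79 for Nodal on the log2 scale, and the other 5 genes lay between −0.39 and 0.52. Thus 3 of the 8 were higher in WT past the threshold, against 14.4% of all genes, and 0 were lower, against 15.2%. Lefty1 was 10.9-fold and Lefty2 4.85-fold higher in WT. Line, infection and sequencing instrument cannot be told apart in this difference. Tdgf1 was at −0.04 in the same contrast, and its fall at Tc 2D was −6.27 by WT and −6.32 by the shRNA control.

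Of the 24 other pathway genes, 4 rose and 8 fell at Tc 2D against WT, where 23.9% of all genes rose and 25.8% fell. Against the shRNA control on one scale, 25 passed the filter, 6 rose and 5 fell, where the shares were 23.8% and 23.8%. The rises with the largest values were those of Eomes, from 7.55 to 44.1 CPM (log2-fold-change 2.40), Smad3, a transducer of Nodal, from 25.3 to 71.0 CPM (1.45), and Acvr2a, the other activin type II receptor, from 14.2 to 26.5 CPM (0.86). Among the deepest falls were those of Inhbb, from 79.3 to 1.69 CPM (−4.90), and the repressor Tgif2, from 47.5 to 12.6 CPM (−1.84). Against the shRNA control on one scale, Eomes (2.51), Smad3 (1.67), Acvr2a (0.89), Inhbb (−4.30) and Tgif2 (−1.06) passed in the same direction. The median of the list was −0.21 against WT, beside −0.06 over all genes, but 0.23 against the shRNA control on one scale, beside −0.00 over all genes, so its sign turned with the control. The trophectoderm markers summed to 418 CPM at Tc 2D. Of these, 8 passed the filter, 8 rose against WT and 7 against the shRNA control on one scale. The primitive endoderm markers summed to 411 CPM, most of it from Col4a1 (206 CPM) and Col4a2 (115 CPM). Of these 9 markers, 5 rose and 0 fell against WT, and 5 rose and 1 fell against the shRNA control on one scale. From WT to Tc 2D, Gata6 rose from 0.894 to 6.41 CPM, whereas Gata4 had 5.27 and 4.79 CPM and Sox17 0.313 and 0.317 CPM. Eomes, though on the pathway list, is also a gene of trophectoderm, and the part of such cells in the levels of the pathway genes was not tested.

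The third comparison asks what followed the knockdown of linc1253, with 2 libraries against 2 in ZHBTc4 cells. Lefty1, Nodal and Gdf3 had higher means after the knockdown and were higher in 4 of 4 pairings of a knockdown with a control library. That states only that the 2 groups did not overlap, and the share of all genes without overlap was not counted. The main limma fit, without a replicate block, called 0 of the 8 genes. A fit with that block called 4 of the 8 and, over all genes, 6.96% higher and 7.66% lower. Its limits are given at the end. Lefty1 had 19.7 and 20.7 CPM in the shRNA control libraries and 39.1 and 26.9 CPM in the shRNA linc1253 libraries. The groups did not overlap, and the first knockdown library was the highest. The log2-fold-change was 0.66 ± 0.18 (SE), with an adjusted p of 0.573 by limma with Benjamini-Hochberg adjustment over 13407 genes. Without shRNA linc1253 replicate 1 the log2-fold-change was 0.40, and without shRNA linc1253 replicate 2 it was 0.92. Gdf3 had 39.99 and 45.5 CPM against 55.4 and 58.1 CPM (0.40 ± 0.11, adjusted p = 0.562 by limma), and Nodal 42.5 and 44.6 CPM against 62.9 and 52.9 CPM (0.40 ± 0.12, adjusted p = 0.573 by limma).

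Lefty2 had 31.4 and 58.3 CPM against 47.7 and 60.5 CPM, and its groups overlapped (0.32 ± 0.28, adjusted p = 0.819 by limma). Acvr2b had 11.6 and 12.7 CPM against 14.4 and 13.0 CPM, a difference of 0.16 ± 0.13 with higher values in 4 of 4 such pairings. Smad7 had 103 and 79.4 CPM against 103 and 88.9 CPM, a difference of 0.08 ± 0.15. Tdgf1 had 739 and 831 CPM against 645 and 770 CPM, a difference of −0.15 ± 0.12. Acvr1b was lower in 4 of 4 pairings, which again states only that the groups did not overlap. It had 56.6 and 56.3 CPM against 52.8 and 49.0 CPM, a difference of −0.15 ± 0.10. These differences, none of them called by the main fit, moved when a single library was left out. That of Lefty2 then ran from −0.12 to 0.75 and that of Smad7 from −0.10 to 0.27, so the sign of both turned. Without shRNA linc1253 replicate 1 that of Tdgf1 was −0.03 and that of Acvr2b 0.09, and without shRNA linc1253 replicate 2 that of Tdgf1 was −0.28 and that of Acvr1b −0.09. Without shRNA control replicate 1 that of Tdgf1 was −0.24 and that of Acvr2b 0.10, and without shRNA control replicate 2 that of Tdgf1 was −0.07. Leaving out a library also leaves the replicate numbers unbalanced between the groups. Between same-numbered libraries, Lefty2 was higher after knockdown by 0.59 (replicate 1) and 0.05 (replicate 2), and Smad7 by 0.01 and 0.16.

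The median over the 8 genes was 0.24 on the log2 scale, beside −0.00 over all genes. By the main limma fit 0% of the 13407 genes rose and 0% fell at an adjusted p under 0.05, and the lowest adjusted p was 0.265. By the unadjusted values of limma, 496 genes (3.7%) were higher and 503 (3.75%) lower at the 0.05 level. Lefty1, Gdf3 and Nodal were among those higher, and with a change of more than 1.3-fold as a further condition these 3 of the 8 remained, where 2.26% of all genes were higher and 2.13% lower. The quasi-likelihood test of edgeR also called 0 genes, with 497 higher and 513 lower at the unadjusted 0.05 level, and DESeq2 called 22 higher and 28 lower with 0 of the 8 among them. Fits that left out a library kept 1 library in a group. Their spread came from the other group alone, so no counts of genes are given for them.

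Of the other pathway genes 23 were tested and 0 were called by the main limma fit. Inhbb, named here after its values were seen, had the largest difference of them, with 65.6 and 46.0 CPM in the control and 116 and 91.4 CPM in the knockdown libraries (0.90 ± 0.19, adjusted p = 0.515 by limma). DESeq2 called it, with an adjusted p of 0.00231. The fibroblast markers summed to 247 to 317 CPM in the controls and 282 to 308 CPM after knockdown, the pluripotency markers to 4381 to 5161 CPM and 4738 to 5317 CPM, and the primitive endoderm markers to 187 to 190 CPM and 177 to 256.4 CPM, and these 3 ranges overlapped. The trophectoderm markers did not overlap, with 61.0 and 59.1 CPM in the controls and 49.7 and 49.0 CPM after knockdown. The part of these differences in the levels of the pathway genes was not tested.

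**Figure D4:**
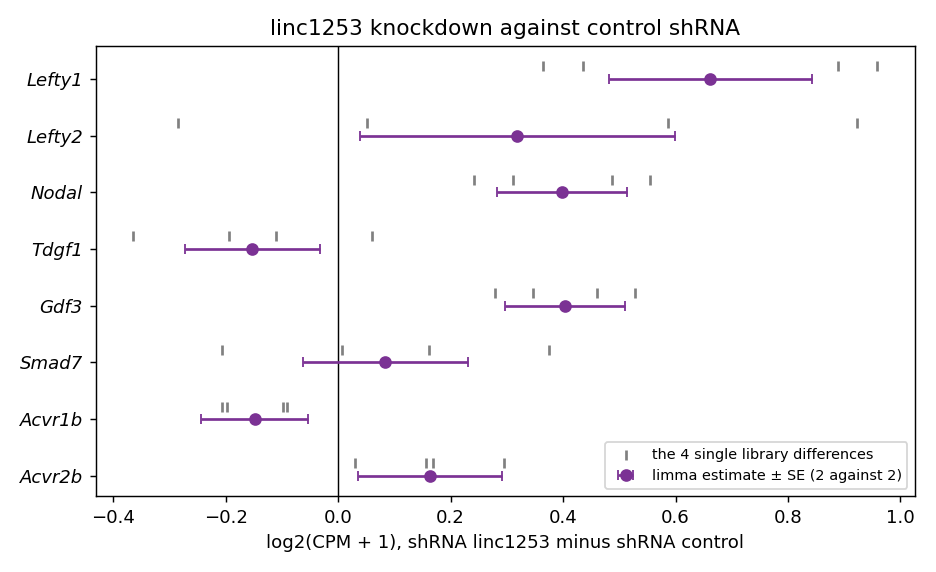
Difference in log2(CPM + 1), shRNA linc1253 minus shRNA control, for the 8 genes, as the limma estimate ± SE (points and bars, 2 libraries against 2) and as the 4 single differences between libraries (ticks). Lefty1, Nodal, Gdf3 and Acvr2b have all ticks right of 0 and Acvr1b has all left of it, and 0 of the 8 passed an adjusted p of 0.05. The share of all genes with every tick on one side was not counted.

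The ChIP libraries asked where Pontin was found on chromatin. Of the 8 promoters, only that of Acvr2b passed a log2 ratio of Pontin over GFP above 1, where 14.5% of 21186 promoters did. With scaling by the median ratio over promoters it was again 1 of the 8, where 6.08% of all promoters passed and each log2 ratio was lower by 0.34 (Acvr2b 1.33, Tdgf1 0.28). A promoter was the stretch that begins 2.5 kb before the start site and ends 500 b after it, and its reads were scaled by the library totals, 40729076 for Pontin and 17185883 for GFP. The Acvr2b promoter had 98 Pontin and 13 GFP reads, a log2 ratio of 1.67 at the 97.4 percentile of all promoters. Fragments, counted once per read name with duplicate positions kept, numbered 61 and 8. The interval of their log2 ratio ran from 0.62 to 2.96 and so reached below the threshold. Its Pontin reads were within the range of the other 7 promoters, 74 to 102, whereas its GFP reads were below their range, 28 to 39.

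Tdgf1 came next, with 102 Pontin and 28 GFP reads and a log2 ratio of 0.62, so that 2 of the 8 were above 0.58, where 34.4% of all promoters were. The other ratios were 0.16 for Nodal, 0.06 for Lefty1, 0.04 for Acvr1b, −0.01 for Smad7, −0.10 for Gdf3 and −0.21 for Lefty2, and the counting interval of each included 0. The median of the 8 was 0.05, below the 0.34 of all promoters. Within 1 kb either side of the start site, 2 of the 8 passed, Acvr2b at 1.99 and Lefty2 at 1.00, where 26.4% of all promoters did. At this depth, with 1 library per antibody, a difference of the size seen at most of these promoters was not detectable. By ChIP with quantitative PCR, the study reports Pontin at an Oct4-binding region of Lefty1, and less of it after Oct4 depletion. Whether that region lies within the promoter stretch used here was not checked.

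**Figure D5:**
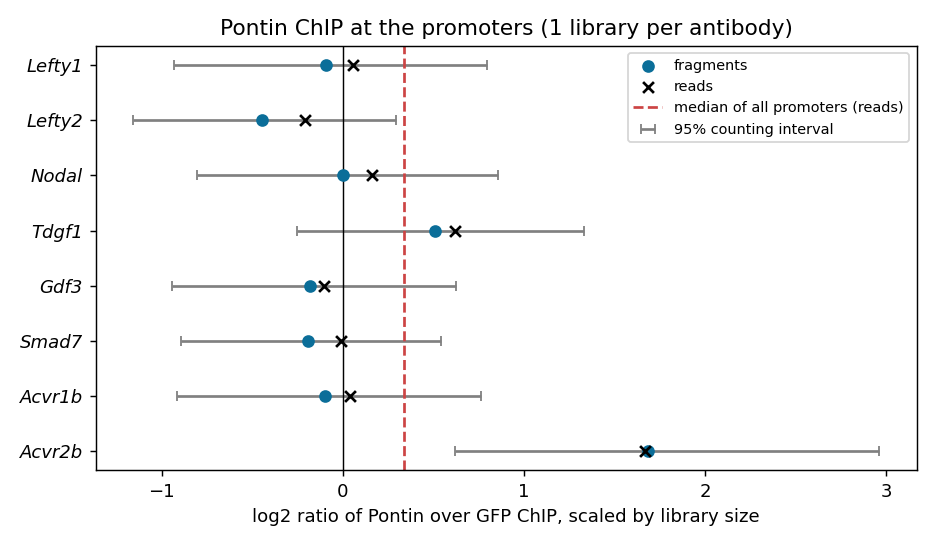
Log2 ratio of Pontin over GFP ChIP at the 8 promoters, from fragments counted once per read name (points, with 95% counting intervals) and from all reads (crosses), with a dashed line at the median of all promoters, 0.34. Acvr2b is the only one whose interval, 0.62 to 2.96, lies wholly right of 0.

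RefSeq promoters of the build GRCm38.p6 ran from 250 bases before to 50 after the start site. They were examined for 4 of the 8 genes, Nodal, Tdgf1, Acvr1b and Acvr2b. Those of the other genes were not examined, so the motif search below does not cover them. The build differs from that of the reads, so no read was placed on these bases. Shown are Acvr2b (chr9:119401928-119402227, plus strand), which alone passed the ChIP ratio, and Tdgf1 (chr9:110946109-110946408, minus strand). Tdgf1 was the next in ChIP ratio and, of these 4 genes, had the deepest fall at Tc 2D. Capitals mark the GC box GGGCGG on either strand.
Acvr2b: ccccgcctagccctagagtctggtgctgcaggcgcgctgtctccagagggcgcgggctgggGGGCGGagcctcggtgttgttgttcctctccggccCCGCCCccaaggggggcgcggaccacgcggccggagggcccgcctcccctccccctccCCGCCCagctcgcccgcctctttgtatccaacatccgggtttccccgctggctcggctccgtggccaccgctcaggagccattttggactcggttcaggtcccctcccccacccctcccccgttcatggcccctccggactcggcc
Tdgf1: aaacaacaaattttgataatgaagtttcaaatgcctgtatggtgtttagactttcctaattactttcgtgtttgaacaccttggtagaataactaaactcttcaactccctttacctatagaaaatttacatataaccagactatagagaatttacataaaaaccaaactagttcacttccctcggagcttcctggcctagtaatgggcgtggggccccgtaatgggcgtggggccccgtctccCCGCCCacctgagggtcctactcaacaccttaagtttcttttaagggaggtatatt
The Acvr2b stretch had 73.3% G and C and 27 CpG dinucleotides, and the Tdgf1 stretch 41.7% and 7, beside medians of 52.7% and 7 over 32851 promoters of the same length. The GC content was 79.7% for Acvr1b and 54.0% for Nodal. The GC box was found in Acvr2b, Tdgf1 and Acvr1b and in 35.7% of all promoters. The octamer ATGCAAAT that Oct4 can bind, held by 1.74% of all promoters, the FoxH1 element TGTGGATT, held by 0.855%, and the palindrome GTCTAGAC that Smads can bind, held by 0.213%, were each searched on both strands and were not in these 4 windows.

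Finally, the genes whose levels across the 8 mRNA libraries were most like those of Lefty1, Nodal and Acvr2b were listed by Pearson's r of log2(CPM + 1), among 9949 genes with a mean of at least 5 CPM in each table. For Lefty1 these were Mrpl41 (r = 0.987), C530028O21Rik, Tgif2, Ncrna00086 and Rnf113a1, for Nodal Acad8 (r = 0.985), Rnf114, Cisd2, Wscd1 and R3hcc1, and for Acvr2b Asap1 (r = 0.973), Dag1, Tnrc6a, Itsn2 and Cttnbp2nl. The number of genes with r above 0.9 was 389 for Lefty1, 179 for Nodal and 93 for Acvr2b. The CPM were used as deposited, so the difference in scale between the 2 tables enters each r. The libraries share a line or a table in groups, and Tc 2D is the lowest point for Lefty1 and Nodal and the highest for Acvr2b, so these r values are a description of the libraries.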

How the data were processed

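Per the study's methods, the authors trimmed the reads, aligned mRNA reads to NCBIM37 with TopHat, allowing up to 10 locations per read, counted them on genes with HTSeq and normalized them by TMM in edgeR. How reads with several locations were counted is not given in the sources used here. The deposited mRNA values are CPM, in 2 tables normalized separately. Each CPM was a whole number of reads within 0.01 read for 100% of values, so reads were recovered. ChIP reads were aligned with Bowtie2, and the authors deposited them as single reads, each with a mapping quality score. Reads with the same name apart from a mate suffix were counted as a single fragment. The score was not used as a filter here, whereas the study used only uniquely aligned reads above a set score. Whether the deposited reads had already been filtered in that way was not checked.

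The 8 genes, the pathway list and the marker lists were chosen with earlier results of these data known. A gene was kept if any of the 4 libraries of a table exceeded 1 CPM, 1 CPM was added, and a log2-fold-change beyond 0.58 was a call. For linc1253, log2(CPM + 1) was fitted by limma 3.58.1 with its trend option, with edgeR 4.0.16 and DESeq2 1.42.0 on recovered reads as alternatives. Nothing in the labels says that the replicates are separate cultures, so p-values measure only the spread between these libraries. Intervals (95%) are exact and cover counting error only. Named pathway genes were those past the threshold with the 3 largest changes in each direction and at least 5 CPM in a library compared, and 1 gene that this rule names is counted but not reported here. Sequence windows of 100 bases were compared with the whole of NCBIM37. Python 3.11.15, pandas 2.3.3, scipy 1.17.1 and R 4.3.3 were used, and each test was run on simulated data. For linc1253 the simulated libraries were independent and their changes larger than those of the 8 genes. That check therefore does not tell whether changes of the size seen could be called.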

Additional observations from a re-analysis of the deposited data

Results flagged for a closer look

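Lefty2 moved in opposite directions against WT at the 2 OHT times, −1.14 at OHT 3D (counting interval −1.23 to −1.08) and 0.38 at OHT 4D (0.32 to 0.44), a gap of 1.52 on the log2 scale. Both times are set against the same WT library, each is 1 library, and the difference between the times was not tested against any spread between replicates.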

How the results depend on the processing

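With a log2-fold-change above 1, how many of the 8 genes passed went from 1 to 0 at OHT 4D, and for the other pathway genes the counts were 1 (OHT 3D), 2 (OHT 4D) and 7 (Tc 2D), where 2.83%, 3.99% and 25.4% of all genes passed in either direction. A pseudocount of 3 CPM left 3 of 24 pathway genes at OHT 3D, and the share of all genes under it was not computed. A ChIP log2 ratio above 0.58, which 34.4% of all promoters passed, gave 2 of the 8 promoters, and so did 1 kb either side of the start site. The remaining counts of the 8 genes, the pathway genes and the 8 promoters stayed within 1.5 times their value under the other pseudocounts, filters, scalings and controls. The alternatives for the pathway list were chosen after seeing the data. After linc1253 knockdown, an unadjusted p under 0.05 with more than 1.3-fold gave 3 of the 8 and 1 pathway gene, and DESeq2 called 1 pathway gene. Leaving out a library kept 1 library in a group, so only log2-fold-changes are given for these fits. The same step moved Lefty2 between −0.12, without shRNA control replicate 1, and 0.75, without shRNA control replicate 2. It moved Smad7 between −0.10, without shRNA control replicate 2, and 0.27, without shRNA control replicate 1, with −0.02 without shRNA linc1253 replicate 1, and the cause was not tested. Such a step leaves the replicate numbers unbalanced between the groups.

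The replicate block called 4 of the 8 genes (Lefty1, Lefty2, Nodal and Gdf3, all higher) and 4 pathway genes, while over all genes it called 933 higher (6.96%) and 1027 lower (7.66%). Same-numbered libraries deviated together (r = 0.673), but the labels give only a number that the groups share and there are only 2 pairs, so the block was not the main fit. Against the ZHBTc4 control on one scale, leaving out either control library, an alternative chosen after seeing the data, gave 6 to 6 of the 8 genes past the threshold at Tc 2D and 11 to 11 pathway genes, where 48.4% of all genes passed without replicate 1 and 48.0% without replicate 2. The comparisons with WT had 1 library on each side and none to leave out.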
